A study of Zea mays with 2 samples.

Results

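The gamma, beta and delta zeins are the storage proteins of maize (Zea mays) endosperm outside the large alpha zein family, and 5 of their genes were followed here among 41406 gene models. The genes were chosen by identifier: the gamma zeins gz27 (GRMZM2G138727), gz50 (GRMZM2G138689) and gz16 (GRMZM2G060429), the beta zein zp15 (GRMZM2G086294) and the 18-kDa delta zein dzs18 (GRMZM2G100018). Each was detected in both libraries. The choice was by identifier, but it was made with earlier results of these data known. RNA-seq had been done on endosperm taken from kernels 15 days after pollination. One group was the defective kernel mutant dek44 and the other was labelled wild type; the labels name no inbred background or allele for either. There was 1 library per genotype, although the series text speaks of triplicates, and no source used here says whether a library pools kernels or plants. Differences below therefore come without replicate error or test and describe these libraries alone.

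Zeins are prolamins, proteins rich in proline and glutamine that are made on the rough endoplasmic reticulum and packed into protein bodies. Gamma and beta zeins carry many cysteines, form disulphide bonds and make up the outer shell of the protein body, with 27-kDa gamma zein acting at the start of its assembly. Alpha and delta zeins fill the interior. Alpha zeins are poor in sulphur, delta zeins are rich in methionine, and beta zein is rich in both cysteine and methionine. The cysteine-rich shell genes are thus the gamma and beta zeins, and the methionine-rich genes are zp15 and dzs18. The 10-kDa delta zein gene dzs10 is not analysed here.

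Levels are given in RPKM, which divides reads by gene length and library total, so levels of different genes can be set side by side. The library totals recovered from the values were 22612657 reads for dek44 and 20861135 for wild type. Fold differences are plain RPKM ratios with a 95% interval for counting error only. A gene counted as expressed when 1 or both libraries reached an RPKM of 1, and as lower or higher when it passed 2-fold on the log2(RPKM + 1) scale; "lower" and "higher" in the counts below have that meaning. In dek44, 3.70% of 30136 expressed genes were lower and 31.6% higher. The median log2 ratio of expressed genes was 0.62. Centring the ratios on that median gave 10.9% lower and 12.3% higher.

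All 5 genes were lower in the dek44 library, by 2.96-fold to 18.9-fold, so 5 of 5 counted as lower, beside 3.70% of expressed genes. Their median log2 ratio was -3.47, against 0.62 over all expressed genes. Their RPKM summed to 184894 in wild type and to 37798 in dek44. They made up 13.4% of all RPKM in wild type and 2.86% in dek44. The differences were unequal, and the smallest was that of gz27.

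**Figure D1:**
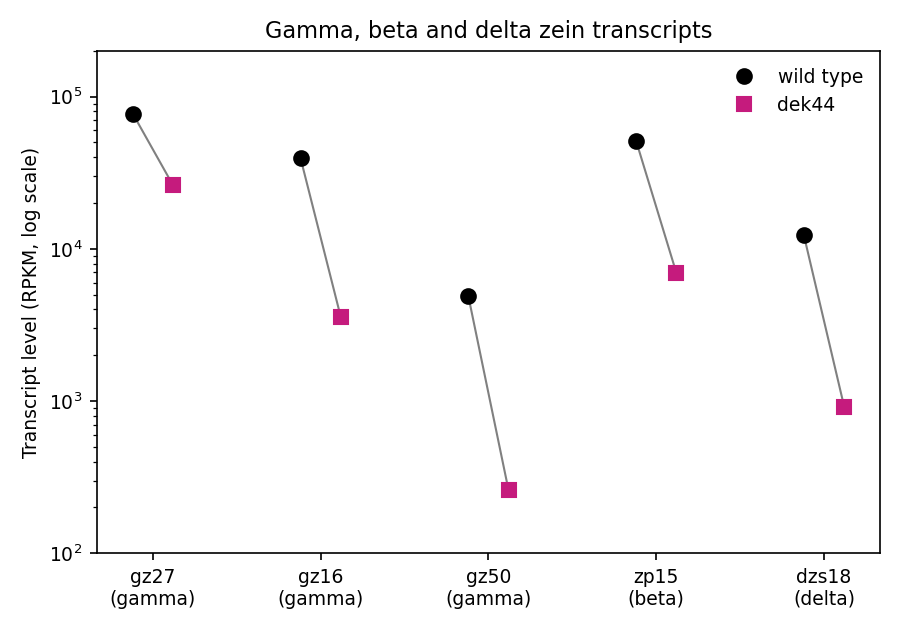
Transcript level of each gene in RPKM on a log axis, with 1 point per library (black circles wild type, pink squares dek44) and a line joining the libraries. All 5 lines run downward; gz27 has the shallowest, from 77278 to 26132, and gz50 the steepest, from 4887 to 258.

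The gamma zein gz27, the most abundant transcript of the wild-type library, stood at 77278 RPKM there and at 26132 in dek44. It was 2.96-fold lower (95% interval 2.93 to 2.98), with a log2 ratio of -1.56. Its rank among all genes went only from 1 to 2, since GRMZM2G005721, which has no name in the table used, was at 53940 in wild type and 36021 in dek44. The share of gz27 in all RPKM was 5.58% in wild type and 1.98% in dek44.

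The gamma zein gz16, a smaller relative of gz27, had 39385 in wild type and 3555 in dek44. It was 11.1-fold lower (10.97 to 11.2), with a log2 ratio of -3.47, and its rank went from 4 to 21. It had been close to gz27 in wild type, where gz27 was 1.96-fold more abundant; in dek44 gz27 was 7.35-fold more abundant. The fold of gz16 was 3.75 times that of gz27 (3.70 to 3.79).

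The 50-kDa gamma zein gz50, the least abundant of the 5, had 4887 in wild type and 258 in dek44. It was 18.9-fold lower (18.4 to 19.4), with a log2 ratio of -4.24, the largest difference of the group. Its rank went from 32 to 756. Only 14 of the 30136 expressed genes had a lower log2 ratio.

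The gene pair gz50 and gz27 lies side by side in the RefSeq annotation of a later B73 assembly, with 0 annotated genes between them. These neighbours held the extremes of the group. The fold of gz50 was 6.39 times that of gz27 (6.21 to 6.58), so that gz27 was 15.8 times as abundant as gz50 in wild type and 101 times in dek44. The genes flanking the pair were not lower by 2-fold. On the gz27 side GRMZM2G138976 was at 10.01 in wild type and 19.5 in dek44, and on the gz50 side GRMZM2G117230 was at 0.548 and 0.446.

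The beta zein zp15, the gene rich in both sulphur amino acids, had 51113 in wild type and 6935 in dek44. It was 7.37-fold lower (7.32 to 7.42), with a log2 ratio of -2.88, and its rank went from 3 to 13. Its neighbour with values on one side, GRMZM2G087570, was at 65.0 in wild type and 139 in dek44, 2.13-fold higher (1.98 to 2.30).

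The delta zein dzs18, a methionine-rich protein of the protein body interior, had 12232 in wild type and 917 in dek44. It was 13.3-fold lower (13.1 to 13.6), with a log2 ratio of -3.74, and its rank went from 17 to 125. Its nearest neighbours with values were GRMZM2G136800, at 2.72 in wild type and 8.35 in dek44, and ZCN11 (GRMZM2G117057), at 173 and 108, 1.61-fold lower (1.50 to 1.73). On one side of gz16 the nearest gene with values, beyond 3 annotated genes without, was EREB202 (GRMZM2G148333), at 8.95 in wild type and 13.6 in dek44. The gene beside gz16, GRMZM2G060400, was at 0 in both libraries. Leaving aside gz50 and gz27 themselves, the nearest genes with values on either side of the 5 zeins numbered 8. Of these 0 were lower and 2 higher, beside 3.70% and 31.6% of expressed genes, and 3 were under an RPKM of 1 in both libraries and could not have counted.

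Ordered by fold, the genes were gz50, dzs18, gz16, zp15 and gz27. Every one of the 10 pairs differed by more than counting error, since the 95% interval of the ratio of folds excluded 1 in 10 of 10. The closest were gz16 and dzs18, where the fold of dzs18 was 1.20 times that of gz16 (1.18 to 1.23). The spread between replicates is unknown and could be larger than such a difference. The order does not follow the classes, because the gamma zeins held both ends, with the beta and delta zeins and gz16 between. It does not depend on the scaling between libraries either, which moves all 5 genes alike.

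The balance of classes differed between the libraries, and for the gamma and beta shares its direction rested on gz27; the delta share was lower in dek44 with and without it. Of the summed RPKM of the 5 genes, gamma zeins made up 65.7% in wild type and 79.2% in dek44. The beta zein made up 27.6% and 18.3%, and the delta zein 6.62% and 2.43%. The share of gz27 alone was 41.8% in wild type and 69.1% in dek44, while gz16 had 21.3% and 9.40% and gz50 2.64% and 0.684%.

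Without gz27 the gamma share went the other way. Among the other 4 genes, gamma zeins had 41.1% in wild type and 32.7% in dek44, the beta zein 47.5% and 59.4%, and the delta zein 11.4% and 7.86%. The higher gamma share in dek44 rested on gz27 alone.

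**Figure D2:**
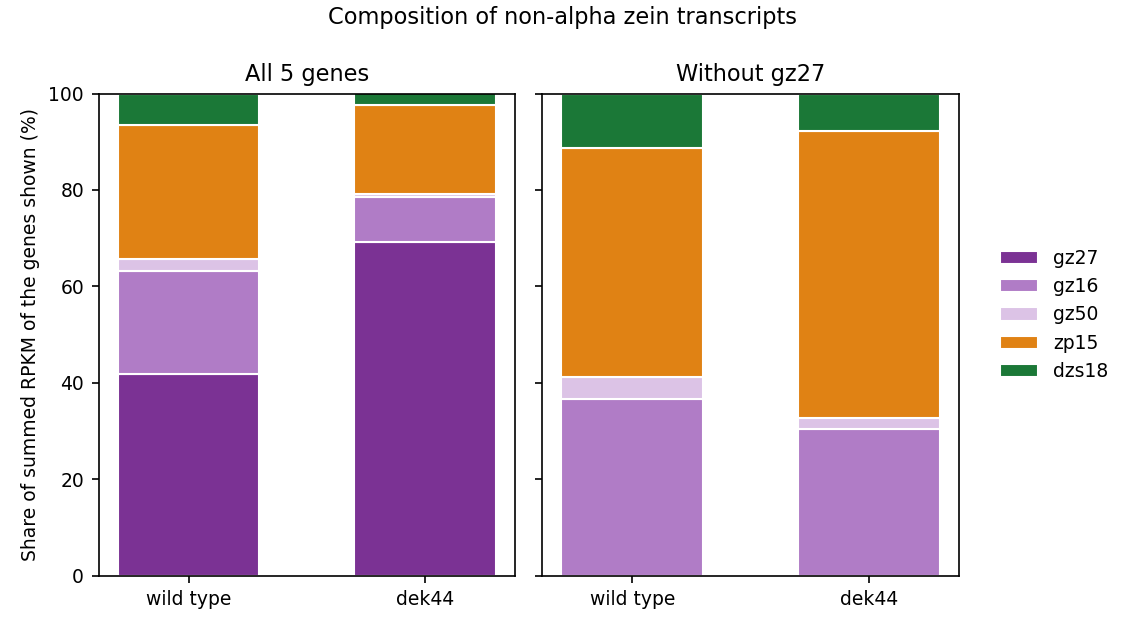
Share of each gene in the summed RPKM, in percent, for wild type and dek44; the left panel has all 5 genes and the right panel leaves out gz27. Gamma zeins (purple shades) go from 65.7% to 79.2% on the left and from 41.1% to 32.7% on the right.

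Set against sulphur content, the cysteine-rich gamma and beta genes together had 14.1 times the RPKM of the delta zein in wild type and 40.2 times in dek44. Without gz27 these ratios were 7.80 and 11.7. The methionine-rich genes zp15 and dzs18 together made up 34.3% of the 5 genes in wild type and 20.8% in dek44. Without gz27 the direction was reversed, at 58.9% in wild type and 67.3% in dek44. Between them, zp15 was 4.18 times as abundant as dzs18 in wild type and 7.56 times in dek44. Summed, the methionine-rich genes were 8.07-fold lower and the gamma zeins 4.06-fold lower. That smaller gamma fold rested on gz27, since gz16 and gz50 were 11.1-fold and 18.9-fold lower. Without gz27 the other 4 genes, of all classes together, were 9.23-fold lower. These are transcript ratios, and protein amounts were not measured.

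Alpha zeins, the main filling of the protein body, gave the closest comparison. Of 24 alpha zein genes found by name, 23 were lower and 0 higher, beside 3.70% and 31.6% of expressed genes. Their median log2 ratio was -3.29. Summed, the 12 genes of the 19-kDa class were 11.4-fold lower and the 12 of the 22-kDa class 9.63-fold lower. The most abundant of these 24 by mean level, z1A1_3 (GRMZM2G059620) and z1A2_1 (GRMZM2G008341), had folds of 11.5 (11.3 to 11.8) and 10.04 (9.89 to 10.2). Both were lower in dek44. Gene models named after BAC clones, some of them more abundant, are not among the 24 and are treated below. The lowest log2 ratios were those of z1C1_12 (-8.65), z1C1_11 (-4.21), z1A1_7 (-3.98) and z1C1_4 (-3.88), and of these z1C1_11 was at only 19.3 RPKM in wild type. Over all 24, 23 had a lower log2 ratio than gz27, 18 than zp15, 9 than gz16, 4 than dzs18 and 1 than gz50. The 1 below gz50 was z1C1_12, at 976 RPKM in wild type and 1.44 in dek44, and the 1 above gz27 was z1B_8, at 0.603 and 1.39. By ratio, zp15, gz16 and dzs18 ranked among the alpha zeins, and gz50 and gz27 near the ends of that ranking. The ranking is on the log2(RPKM + 1) scale, which holds back genes of low level. By plain RPKM ratio some alpha zeins of low level also lay past gz50, such as z1C1_11, 202-fold lower (35.7 to 8006).

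Together the 5 genes made up 61.4% of the RPKM of the 29 zeins found by name in wild type and 77.8% in dek44. That higher share was again held by gz27, with 25.7% of zein RPKM in wild type and 53.8% in dek44. The other 4 together went from 35.8% to 24.0%. Zein genes without a matching name are missing from these shares. The files also hold 16 gene models named after a pair of BAC clones, some of them abundant, which the tables used do not annotate. The most abundant, AF546188.1_FG007 and AF546188.1_FG005, were at 33044 and 28924 in wild type and were 8.91-fold and 8.45-fold lower in dek44. Not all were lower: AF546188.1_FG001 was at 229 in wild type and 289 in dek44. If all 16 were counted as zeins, the share of the 5 genes would be 50.1% in wild type and 66.4% in dek44, and that of gz27 20.9% and 45.9%. Reads of near-identical copies may have been split or shared between genes, which bears most on the alpha zeins and also on the related gamma zeins.

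**Figure D3:**
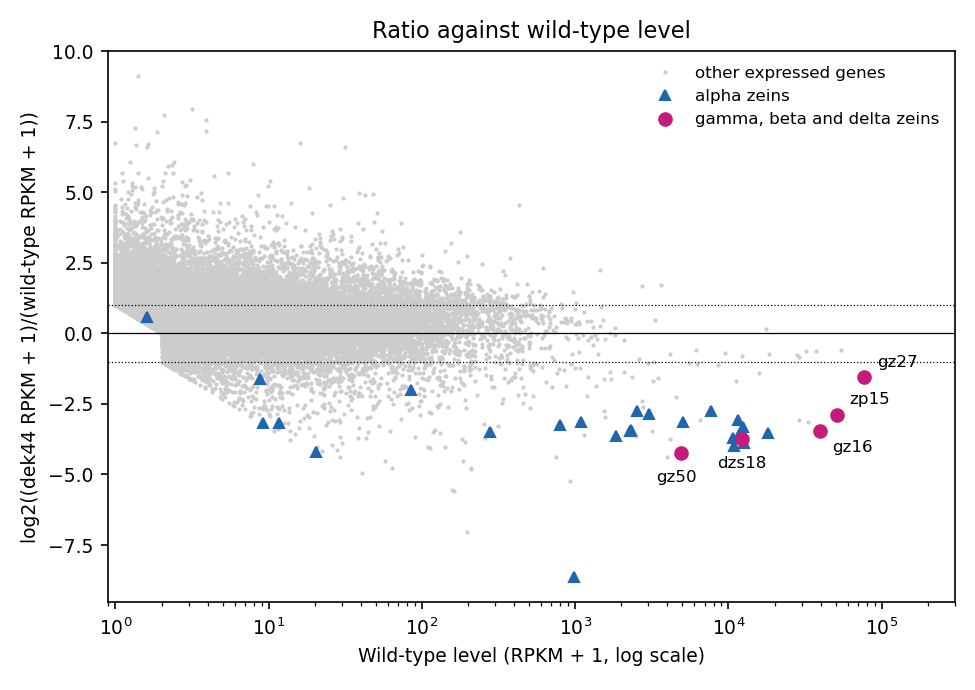
Ratio of dek44 to wild type, as log2((RPKM + 1)/(RPKM + 1)), against wild-type RPKM + 1 on a log axis, each point an expressed gene (pink circles the 5 genes, blue triangles alpha zeins, grey the rest; dotted lines mark 2-fold). The 5 genes sit at the right; among them gz27 is highest at -1.56 and gz50 lowest at -4.24.

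Abundant genes were compared as well, taken by their mean over both libraries. A gene can pass that filter through a high level in 1 library. The gene wx1 (GRMZM2G024993) did so at 3191 in wild type and 288 in dek44. In the other direction, GRMZM2G091054 did so at 430 in wild type and 10168 in dek44. Of 87 genes other than named zeins with a mean RPKM of 1000 or more, 25 (28.7%) were lower and 15 (17.2%) higher; the median log2 ratio was -0.15. Among these, 16 had a lower ratio than gz27, 8 than zp15, 3 than gz16, 2 than dzs18 and 1 than gz50. Some of the 87 may be zeins without a matching name, and BAC-named models were not left out. Among all 30136 expressed genes, 472 had a lower ratio than gz27. Genes of very low wild-type level could not have reached that ratio on the log2(RPKM + 1) scale.

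Genes with the most similar ratios were looked for among 52 named genes outside the zeins with a wild-type RPKM of 500 or more, by the absolute difference of log2 ratios over the 2 libraries. Nearest to gz16 was wx1 (GRMZM2G024993), the granule-bound starch synthase gene, at 3191 in wild type and 288 in dek44, a difference of 0.0049. It was also nearest to dzs18, at a difference of 0.27. Nearest to zp15 was bt1 (GRMZM2G144081), the ADP-glucose transporter gene, at 2377 and 320, a difference of 0.0068. Nearest to gz50 was bt2 (GRMZM2G068506), a subunit gene of ADP-glucose pyrophosphorylase, at 3998 and 192, a difference of 0.14. Nearest to gz27 was leg1 (GRMZM2G174883), a legumin storage protein gene, at 3230 and 993, a difference of 0.14. The candidates were chosen by wild-type level alone, which favours genes lower in dek44, and wx1, bt1 and bt2 were under 500 in dek44. A likeness over 2 libraries says only that the ratios were close.

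The regulators of zein genes that were matched were split. Factors also planned for the list, such as o11, bzip22 and gzr1, are not among them. Of 8 identifiers, 2 were lower, 0 higher and 6 within 2-fold, beside 3.70% lower and 31.6% higher among expressed genes; the median log2 ratio was -0.06. On ratios centred on the median of all genes, 3 were lower and 0 higher, beside 10.9% and 12.3%. The bZIP activator o2 (GRMZM2G015534), which acts on alpha and beta zein genes, was at 456 in wild type and 80.7 in dek44, a 5.66-fold difference (5.42 to 5.91). The aleurone and endosperm factor nkd1 (GRMZM2G129261) was 2.11-fold lower (2.02 to 2.20).

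Among the regulators, pbf1, ohp1 and ohp2 are factors that bind the promoter of the 27-kDa gamma zein gene. Their part in the level of gz27 was not tested. The prolamin-box factor pbf1 belonged to a pair of identifiers: GRMZM2G146283 was at 64.3 in wild type and 32.0 in dek44, and GRMZM2G146267 at 17.4 and 21.1. The o2 heterodimerizing factor ohp1 (GRMZM2G016150) was at 23.5 in wild type and 18.6 in dek44, and ohp2 (GRMZM2G007063) at 11.2 and 22.4. None of these 4 identifiers passed 2-fold on the log2(RPKM + 1) scale, with GRMZM2G146283 just inside it at -0.98. Centred on the median of all genes, it was at -1.61.

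Of 3 protein body or opaque genes matched, 2 were lower and 0 higher, beside 3.70% and 31.6% of expressed genes. The gene fl1 (GRMZM2G094532), for a protein body membrane protein, was at 94.5 in wild type and 20.7 in dek44, a 4.57-fold difference (3.93 to 5.33). The gene o10 (GRMZM2G346263), for a protein that helps place zeins within the protein body, was at 70.8 and 15.1, 4.67-fold lower (4.11 to 5.33). The third of the list, o7 (GRMZM2G074759), was at 52.0 and 66.1.

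Folding genes of the endoplasmic reticulum, where zeins are made and cross-linked, were spread around the median of all genes. Of 18 identifiers, 0 were lower and 5 higher, a share near the 31.6% of all expressed genes, and the median log2 ratio was 0.57 against 0.62. The most abundant, the protein disulphide isomerase gene PDIL1-1 (GRMZM2G091481), was at 1555 in wild type and 1340 in dek44. The calreticulin gene crt2 (GRMZM2G358059) was at 72.7 and 447 and the chaperone gene bip2 (GRMZM2G415007) at 29.0 and 90.0. The disulphide isomerase family genes PDIL5-2 (GRMZM2G113629) and PDIL2-2 (GRMZM2G159369) were at 8.86 and 25.1 and at 57.4 and 138. On centred ratios 1 was higher, crt2, and 2 were lower, both under the name PDIL5-1 (GRMZM2G073628 and GRMZM2G443655). Among all expressed genes 12.3% were higher and 10.9% lower on centred ratios, so the lower count was near the share of all genes.

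Genes for sulphur assimilation and for making cysteine and methionine, the residues that set these zeins apart, were higher more often than lower. Of 9 identifiers 8 were expressed; 5 of these were higher and 1 lower, beside 31.6% and 3.70% of all expressed genes, and their median log2 ratio was 1.65. On centred ratios 4 were higher and 1 lower, beside 12.3% and 10.9% of all expressed genes. With a pseudocount of 5, 3 were higher and 1 lower. The sulphite reductase gene sir (GRMZM2G090338), the most abundant, was at 55.9 in wild type and 192 in dek44. The homocysteine methyltransferase gene hmt1 (GRMZM6G310687) was at 1.74 and 50.97, and hmt4 (GRMZM2G039166) went the other way, at 10.6 and 1.68. The serine acetyltransferase gene sat2 (GRMZM2G013430) was at 0.763 and 6.52, and cys1 (GRMZM2G082185), listed by its symbol, at 13.8 and 63.9. The cystathionine gamma-synthase gene cgs1 (GRMZM2G075153), which commits carbon to methionine, was at 25.7 and 28.3.

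**Figure D4:**
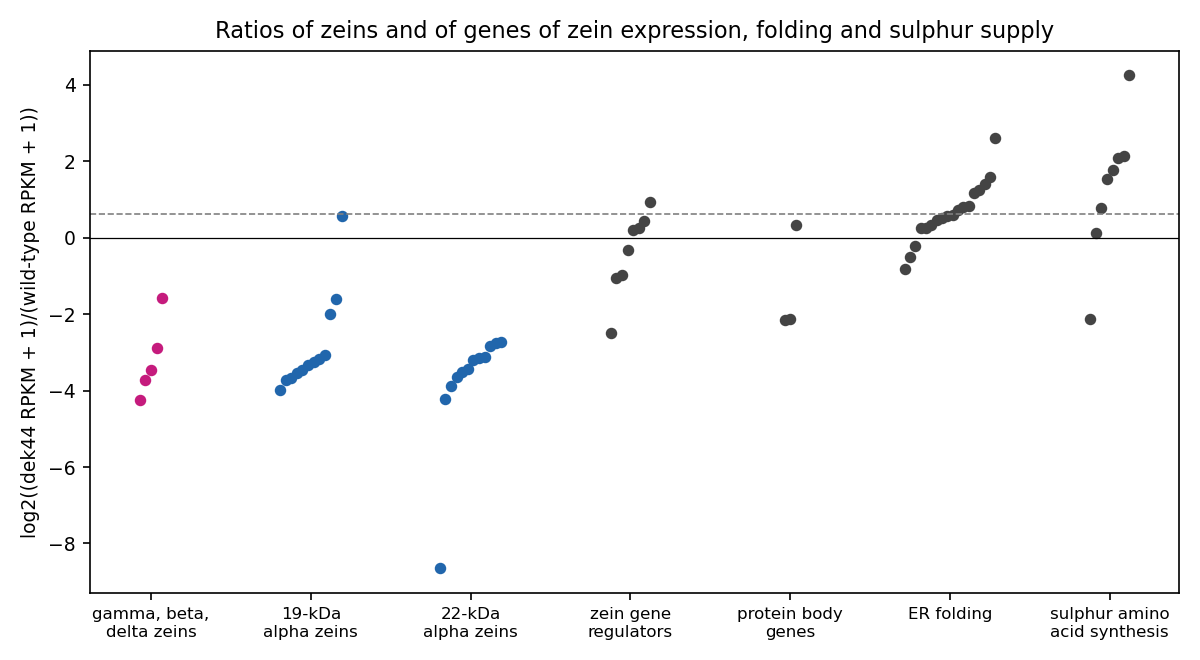
Ratio of dek44 to wild type, as log2((RPKM + 1)/(RPKM + 1)), with 1 point per expressed gene of each list; the dashed line is the median of all expressed genes at 0.62. The 5 zeins (pink) and nearly all alpha zeins (blue) lie below 0, while folding genes centre on 0.57 and sulphur amino acid genes on 1.65.

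Markers of endosperm cell types also differed. Their counts stand beside 3.70% lower and 31.6% higher among expressed genes, or 10.9% and 12.3% on centred ratios. All 5 starchy endosperm markers (o2, sh2, bt2, wx1 and ae1), genes of the cells that make zeins, were lower, their RPKM summing to 11440 in wild type and to 1530 in dek44. Of 6 basal transfer layer markers, 5 were higher, or 4 on centred ratios, with sums of 277 and 2349. With centring mrp1 dropped out, at 0.368 in wild type and 1.89 in dek44. The defining gene betl1 was under an RPKM of 1 in both libraries. Both markers of the embryo-surrounding region were higher, with sums of 8.27 and 118. The 5 embryo markers summed to 316 and 431, with 2 of 4 expressed higher, or 1 on centred ratios, and the 5 aleurone markers to 225 and 236, with 1 lower, 1 higher and c1 at 0 in wild type. The 2 green tissue markers matched, lhcb4 and lhcb5, were under an RPKM of 1 in both libraries. The part of cell type make-up in the zein differences was not tested, and fewer cells of a type and less RNA per cell cannot be told apart in such libraries. The regulator list shares o2 with the starchy endosperm markers and nkd1 with the aleurone markers.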

How the data were processed

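Endosperm RNA of 1 dek44 and 1 wild-type library was analysed. The deposited values are RPKM per gene model, made by the authors with Bowtie 0.12.2 on B73 RefGen_v3, per the submitters' processing notes. No source used here states the counting rule, the handling of multiple matches, strand, gene lengths or pooling.

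Library totals were recovered from the RPKM values as the totals that make gene lengths whole. Of 10476 genes with usable read ratios, 76.4% gave a whole length within 0.005 bases; reads that share a factor in both libraries need not. On simulated data of 41406 genes, 3 of 3 pairs of totals were recovered. The reads of a gene are the smallest that fit a length of at least 100 bases, so true reads may be a multiple and intervals are then too wide. Folds carry exact conditional binomial (Clopper-Pearson) 95% intervals; ratios of folds carry a normal interval on the log scale from the same reads. Intervals cover counting error only, and reads without molecular identifiers are not independent molecules. Log2 ratios use a pseudocount of 1, which understates the change of low genes.

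RefSeq supplied names and gene order (annotation of Zm-B73-REFERENCE-NAM-5.0). That build differs from the files' build, so no coordinates are given; 40.3% of identifiers matched. Lists were matched by symbol, and identifiers whose other names point to an unrelated gene were left out. Named genes were the 5 zeins, the largest ratios and highest levels of each list, the nearest ratio for each zein, and, chosen after their values were seen, their neighbours, GRMZM2G005721, GRMZM2G146267, GRMZM2G073628, ohp1 and cgs1. Members and lists were chosen with earlier results of these data known. Scalings, pseudocounts, filters and thresholds were varied. Python 3.11.15, numpy 2.4.6, pandas 2.3.3 and scipy 1.17.1 were used.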

Additional observations from a re-analysis of the deposited data

How the results depend on the processing

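The 5 zeins stayed lower by 2-fold or more under each of 6 scalings and pseudocounts and 2 filters; at 4-fold gz27 alone no longer passed. Scaling moved each log2 ratio. For gz27, gz50, gz16, zp15 and dzs18 in turn, the log2 ratios were -2.19, -4.86, -4.09, -3.50 and -4.36 after setting the median ratio to 0. They were -2.31, -4.98, -4.22, -3.63 and -4.48 with the trimmed mean, -1.79, -4.46, -3.70, -3.11 and -3.97 with the sum outside all zeins, and -2.19, -4.86, -4.10, -3.51 and -4.36 when scaled to genes beyond the top 100 by level. These move all genes by 1 factor.

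The reported counts over all expressed genes were 1116 lower and 9529 higher. A pseudocount of 5 gave 543 lower and 4192 higher, a zero median 3284 lower and 3703 higher, and the trimmed mean 2961 lower and 3674 higher. Scaling to genes beyond the top 100 gave 2513 lower and 4290 higher, and a 4-fold threshold 260 lower and 2084 higher. With a pseudocount of 0.1, 1 alpha zein was higher, z1B_8 (0.603 RPKM in wild type, 1.39 in dek44). Of the counts for the smaller lists, 19 moved by over 1.5 times and 161 did not.

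Class shares depended on the members and the denominator. Without gz27 the gamma, beta and delta shares were 41.1%, 47.5% and 11.4% in wild type and 32.7%, 59.4% and 7.86% in dek44. With all zeins as the denominator they were 40.4%, 17.0% and 4.07% in wild type and 61.6%, 14.3% and 1.89% in dek44. With RPKM multiplied by the RefSeq gene length, an alternative chosen after seeing the data, they were 70.7%, 23.0% and 6.25% in wild type and 83.3%, 14.6% and 2.18% in dek44. The share of the 5 genes outside the 10 most abundant other genes was 16.96% in wild type and 3.26% in dek44. The median log2 ratio of genes with a wild-type RPKM of 1000 or more was -1.10, and -0.72 with zeins left out. With genes chosen by their mean over both libraries it was -0.61, and -0.15 with zeins left out. These sets, and the counting of BAC-named models as zeins, were also chosen after seeing the data.

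Shares of recovered reads were not run, because the reads of gz27 are known only up to a whole factor, and residue-weighted values were not run, because no protein sequences were used here. No paired analysis was possible because there is 1 library per genotype; leaving out replicates was not possible for the same reason.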
